A study of Mus musculus with 18 samples.

Results

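RNA that withstood RNase digestion without any MDA5 was compared between 2 mouse genotypes, the editing-deficient Adar-/-; Mavs-/- livers and the Mavs-/- livers. All 6 RNase only libraries of the series were taken, 3 of each genotype, out of 18 libraries in all. The other 12 libraries, 6 of MDA5-protected RNA and 6 of undigested input RNA, were used only to describe the same genes and regions. MDA5-protected peaks were taken as listed, without the subtraction of RNase only peaks that the paper made. Both groups of mice lacked Mavs, and the editing-deficient mice also lacked Adar, so no group had normal Mavs. The livers came from mice of 8 to 9 days, from an Adar-deficient and a Mavs-deficient line that were intercrossed and then backcrossed. The genotype tags give Mavs-/- for the libraries whose titles read wild-type.

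ADAR1, the product of Adar, deaminates adenosines of paired RNA to inosines, and MAVS relays the signal of the dsRNA sensor MDA5. RNase A and T1 cut single-stranded RNA, so stretches folded back on themselves or paired with another strand withstand them better. In the assay, total liver RNA was heated and refolded before digestion, so pairing formed in the tube cannot be told apart from pairing in the cell. Inosine pairs with uridine less stably than adenosine does.

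The peak lists give positions, a significance and an area under the significance curve (AUC). They hold no counts of reads, and the depth of a value is unknown. The area grows with depth. It was centred within a library for limma and ranked within a library to order genes and regions. Printed areas, their overlap between groups and the limit of 500 were not adjusted for depth unless stated. Peaks had been called against the input of the same genotype, so a difference in the control cannot be told apart from a difference in resistance. A gene without a peak is one that did not reach an area of 500 over its control, not one without resistant RNA. In bulk liver, fewer cells of a type and less RNA per cell cannot be told apart.

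Exonic stretches with a peak in every library of one genotype and in none of the other are the sequences in which resistance was called by genotype. The 30 bases around the strongest peak summit are shown for 6 such regions of the editing-deficient and 5 of the Mavs-/- livers, from GENCODE M21 transcripts on GRCm38, 5′ to 3′ on the transcribed strand. The class named is that of the whole region, where any overlap with a UTR of any transcript took precedence. The 30 bases themselves may thus be of another class, such as coding sequence. Capitals mark the bases that were paired in the predicted minimum free energy fold of the surrounding transcript window of up to 150 nt. The first 6 were called in the editing-deficient livers.
Hao2, 3′ UTR, chr3:98875068-98875097, minus strand: atTGACTATaTCaaaaagccatgTTCTagc
Dio1, 3′ UTR, chr4:107291812-107291841, minus strand: TTgTTGGTGAtAGGTGTTTCCAtgGCaaca
Igkc, 3′ UTR, chr6:70726854-70726883, plus strand: TTGCGGTGctccaaacctcctcccCACCtc
Psma1, 3′ UTR, chr7:114264780-114264809, minus strand: gGTATGTTTTAGAAAtCAgTCCAgaTGTAa
Src, 3′ UTR, chr2:157471594-157471623, plus strand: ctGCCcGACtccagctGCCcaaggACCTTt
Aqp8, exon, chr7:123462637-123462666, plus strand: CGTGtgttCTGGTatGAGCaataCgTACAA
The next 5 were called in the Mavs-/- livers.
Slc25a3, 3′ UTR, chr10:91116849-91116878, minus strand: aATGTCtgttcctGATATaattactgTAGT
Rpl14, 3′ UTR, chr9:120574343-120574372, plus strand: GACCCCAGCCCagaaAGCacctGCTccaaa
Slc35g1, 3′ UTR, chr19:38405404-38405433, plus strand: TTCTTATACCAacctttACAggGTaTGAtt
Pigr, exon, chr1:130847426-130847455, plus strand: ccatGACCCTGAacccggTCAGtaaGGAAG
Khdrbs3, 5′ UTR, chr15:68928645-68928674, plus strand: CCTGGCGGgGtccgCgCCGCCGGGGGCGGG
Between 12 and 24 of the 30 bases were paired in these folds, 12 in Igkc, 13 in Hao2, 22 in Dio1 and 24 in Psma1 and in Khdrbs3. Paired and unpaired stretches occurred in both sets. These 11 regions were chosen from the called exonic regions after their values were seen.

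The 2 genotypes yielded 5798, 6094 and 5605 peaks in the editing-deficient replicates 1 to 3, and 5572, 3826 and 3150 in the Mavs-/- replicates 1 to 3. Every editing-deficient library thus had more peaks than every Mavs-/- library, although Mavs-/- replicate 1 came close to the lowest of them. Peaks fell on the sense strand of 2567, 2426 and 2208 genes in the editing-deficient libraries. The Mavs-/- libraries had 2345, 1801 and 1314 genes with a peak, so the groups overlapped. The means were 2400 ± 181 and 1820 ± 516 genes (SD, n = 3), and the difference was within the spread (exact permutation p = 0.20, where 0.10 is the smallest that 3 libraries against 3 allow). With the 3150 strongest peaks of each library, the difference was -1.33 genes.

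Adar itself had a peak in 1 library, intronic peaks with a summed area of 1244 in editing-deficient replicate 2, and Mavs had none in any RNase only library. In the input, Adar had exonic peaks of 915 and 686 in editing-deficient replicates 2 and 3 and none in a Mavs-/- library, which is not the direction that loss of the whole transcript would give. The deleted part of Adar is not given in the sources used here, so these peaks do not check the genotypes. Among markers of the tissue, all 6 hepatocyte genes listed had an input peak, and 1 of them, albumin (Alb), had an RNase only peak. Of the lymphocyte markers none had a peak in the input or in the RNase only libraries, and of 5 erythroid markers all had an input peak and none an RNase only peak. Of 5 cholangiocyte markers 1 had an input peak and 3 an RNase only peak. The keratin gene Krt19 and the adhesion molecule Epcam had RNase only peaks in all 6 libraries, with areas of 5184 to 11706 and 6105 to 11253. The ranges of both overlapped between genotypes. Krt7 had peaks in 3 editing-deficient and 2 Mavs-/- libraries. RNase only peaks were also found for 2 of 6 Kupffer cell, 1 of 5 endothelial and 4 of 5 stellate cell markers.

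A pair of libraries stood apart from the rest. Over the 403 genes with a peak in all 6 libraries, the log2 area of editing-deficient replicate 1 correlated with the other libraries at a Pearson r of 0.38 to 0.53 (across genes, which are not independent replicates). Editing-deficient replicates 2 and 3 correlated at 0.87, and editing-deficient replicate 2 correlated at 0.88 with Mavs-/- replicate 1. Mavs-/- replicate 3 had the fewest peaks and correlated at 0.63 to 0.70 with the libraries other than editing-deficient replicate 1. Results are therefore also given without these libraries.

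The location of the resistant RNA differed more among replicates than between genotypes. Intronic peaks made up 14.5%, 33.6% and 40.1% of the peaks in the editing-deficient replicates. In the Mavs-/- replicates they made up 30.5%, 26.9% and 24.6%. Editing-deficient replicate 1 was thus the lowest and replicates 2 and 3 the highest of all 6.

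Peaks in 3′ UTRs, where inverted repeats that fold into long hairpins often lie, made up 36.6%, 24.4% and 21.2% in the editing-deficient and 29.2%, 36.7% and 14.1% in the Mavs-/- replicates. Intergenic peaks made up 35.6%, 30.9% and 29.1% against 26.7%, 21.9% and 43.7%. These had no gene on their own strand but could lie opposite to one. Peaks in 5′ UTRs were few except in Mavs-/- replicate 3, at 1.81%, 1.92% and 1.94% against 1.79%, 3.08% and 8.10%. Other exonic peaks made up 11.5%, 9.22% and 7.67% against 11.7%, 11.3% and 9.49%. None of the 5 classes differed beyond the spread between libraries (exact permutation p = 0.30 to 1.00, adjusted p = 1.00 over the 5 classes). The plot of peaks by class shows the same shares.

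**Figure D1:**
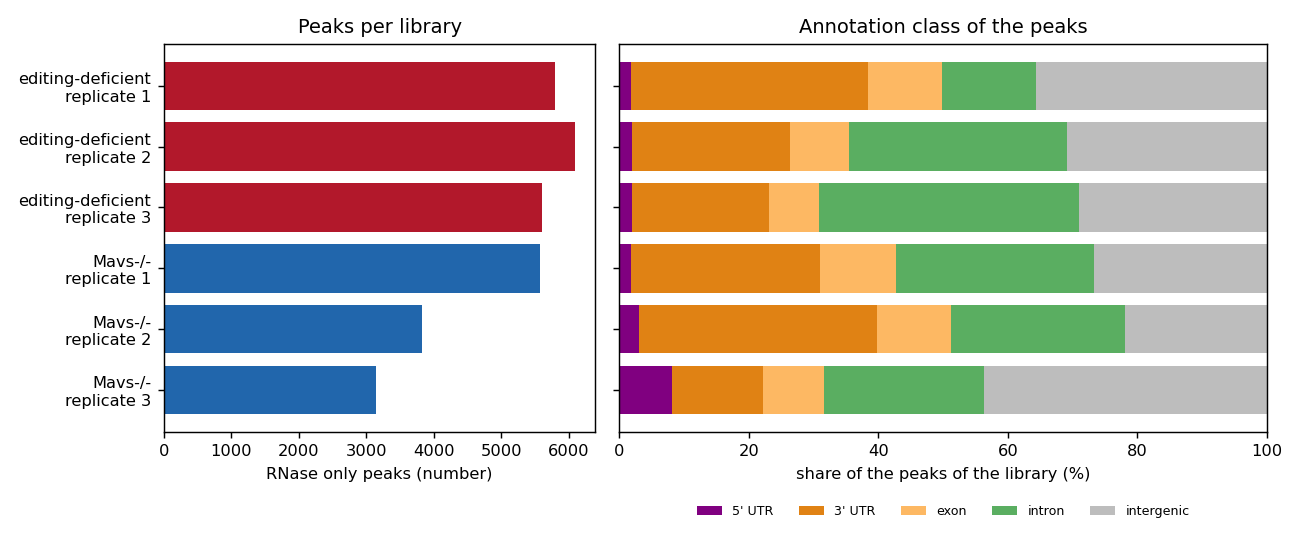
Number of RNase only peaks per library (left, bars from 0) and the share of these peaks in each annotation class (right, in % of the peaks of the library). Red bars are the 3 editing-deficient and blue bars the 3 Mavs-/- libraries; intronic shares run from 14.5% to 40.1% within the editing-deficient genotype alone.

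Of 5133 genes with a peak in any of the 6 libraries, 102 had one in all 3 editing-deficient libraries and in no Mavs-/- library, which is 1.99% of the genes. The reverse was found for 16 genes, or 0.312%. These were 10.8% of the 945 genes called in every editing-deficient library and 2.62% of the 611 called in every Mavs-/- library. Most genes showed no such split, since 403 were called in all 6 libraries and 2189 in a single one.

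The imbalance depended on the number of peaks. With the 3150 strongest peaks of each library, 3578 genes had a peak, and 29 (0.811%) were called in every editing-deficient and no Mavs-/- library against 20 (0.559%) in the other direction. Of the 102 genes 18 remained called and of the 16 genes 7. Among the genes described below, Rora, Cyp2c29, Wdfy3, Serbp1 and Src lost the editing-deficient call and Tyk2, Tcf7l1 and Gabarap the Mavs-/- call. Most of these genes lay near the limit of calling, with a mean area under 1000 in 70 of the 102 and in 13 of the 16. Their median mean area was 799.5 and 717.8, beside 739 over all 5133 genes and 2635 over the genes called in all 6 libraries.

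**Figure D2:**
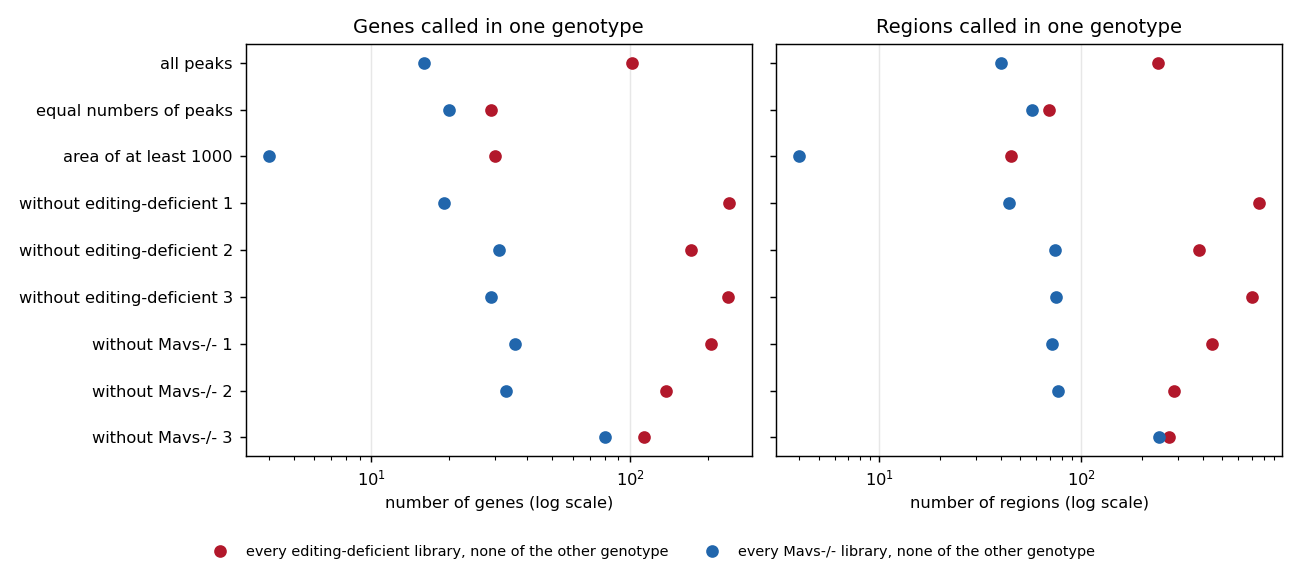
Number of genes (left) and regions (right) called in every library of one genotype and in none of the other, on log axes, with all peaks, with 3150 peaks per library, with areas of at least 1000 and without each library in turn. Red points (editing-deficient) lie to the right of blue points (Mavs-/-) in each row, by 102 to 16 genes with all peaks and by 29 to 20 genes with equal numbers of peaks.

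The strongest of the 102 genes was Hao2, which encodes a peroxisomal 2-hydroxy acid oxidase. Its summed area was 5283, 2471 and 1491 in the editing-deficient replicates 1 to 3, and no Mavs-/- library had a peak. The main peak spanned 805 bp of the 3′ UTR (chr3:98874518-98875322, minus strand), with areas of 3242, 2471 and 1491. In the input the direction was the opposite, with peaks in all 3 Mavs-/- libraries (3853, 4834 and 2799) and in no editing-deficient library. No MDA5-protected library had a Hao2 peak.

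Dio1, the type 1 deiodinase that activates thyroid hormone, had summed areas of 4340, 1070 and 731 in the editing-deficient replicates. Its shared region lay in the 3′ UTR (chr4:107291612-107292424, minus strand) with areas of 3212, 1070 and 731. A Dio1 input peak was called in 1 Mavs-/- library and in no editing-deficient library. Replicate 1 was the highest for both Hao2 and Dio1.

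Introns carried the signal in 9 of the 15 named genes of this group. Adcy2, an adenylyl cyclase, had areas of 1567, 1484 and 2297 from intronic peaks. Tgfbr3, the TGF-beta co-receptor betaglycan, had 3254, 1318 and 1414. Rora, a nuclear receptor of the circadian clock, had 1444, 1849 and 1151. These are sums over several peaks, and the 1 region of Rora called in all 3 libraries (chr9:69241105-69241312, plus strand) had areas of 732, 538 and 646, near the limit of 500. Over the whole gene, input peaks of Rora ran in the same direction, with 749, 1331 and 2227 in the editing-deficient libraries and none in the Mavs-/- ones. No input peak overlapped this region itself.

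Acot12, an acetyl-CoA thioesterase, had a single intronic peak in each editing-deficient library (chr13:91780326-91780573, plus strand), with areas of 1591, 1764 and 1056. Over the whole gene, Acot12 also had peaks in all 3 MDA5-protected libraries of this genotype (601, 1266 and 1432) and in none of the Mavs-/- ones. No MDA5-protected peak overlapped this intronic region itself. Cyp2c29, a cytochrome P450 of a family with close paralogs, had 694, 2389 and 4160. It too was called in all 3 MDA5-protected libraries of the editing-deficient mice, and its input peaks followed the same direction, with 677, 3567 and 656 against none. Reads of Cyp2c29 may be shared with other Cyp2c genes.

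Ddb2, a subunit of the sensor of ultraviolet DNA damage, had intronic areas of 1822, 1243 and 871. Wdfy3, an adaptor of selective autophagy, had 979, 1439 and 1211, with input peaks in all 3 editing-deficient libraries (2128, 2017 and 4027) and in 1 Mavs-/- library (622). Atg7, the E1-like enzyme of autophagosome formation, had 2072, 827 and 754. Gm49355, a predicted gene, had 1825, 1028 and 752. For none of these 4 genes was an MDA5-protected peak called in any library.

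The remaining 4 of the 15 had 3′ UTR peaks, with 1 further intronic peak in Serbp1. Igkc, the constant region of the immunoglobulin kappa chain, had 1172, 1951 and 1211 from a region of 512 bp (chr6:70726451-70726962, plus strand), without an input or MDA5-protected peak in any library. Serbp1, an mRNA-binding protein, had 1244, 1501 and 789 and had input peaks in all 6 libraries. Src, a tyrosine kinase, had 1590, 1428 and 655. Psma1, a subunit of the proteasome core, had 804, 1564 and 955.

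In the other direction the gene that ranked first was Cyp3a41a, a cytochrome P450, with intronic areas of 1553, 1605 and 980 in the Mavs-/- replicates 1 to 3. Its close paralog Cyp3a41b had 2125, 1167 and 2158, and 624 in editing-deficient replicate 2. The 2 genes are near-identical, so the split of reads between them is uncertain. Aldoa, a glycolytic aldolase, had 1389, 592 and 1952, while its input peaks were found in all 3 editing-deficient and 2 Mavs-/- libraries.

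Most of the 16 genes had exonic peaks, as had most of all 5133 genes. Slc25a3, the mitochondrial phosphate carrier, had 917, 906 and 795 in its 3′ UTR (chr10:91116645-91117024, minus strand) and input peaks in all 6 libraries. Rpl14, a protein of the large ribosomal subunit, had 1086, 1295 and 503, with input peaks in 2 editing-deficient libraries only. Gabarap, a protein of the autophagosome membrane, had 659, 798 and 610, with input peaks in all 6 libraries. The last value of Rpl14 lay just above the limit of 500.

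The processed pseudogene Gm12338 (1317, 1064 and 700) was in the group as well, and its reads may come from the parent gene. Chd7, a chromatin remodeller, had 5′ UTR peaks of 680, 757 and 617 and was called in all 3 MDA5-protected libraries of the same genotype and in none of the other. Tcf7l1, a transcription factor of Wnt signalling, had 817, 501 and 1175, and Tyk2, a kinase of interferon receptors, had 542, 722 and 1198. The lowest value of each of the last pair lay close to the limit of 500.

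**Figure D3:**
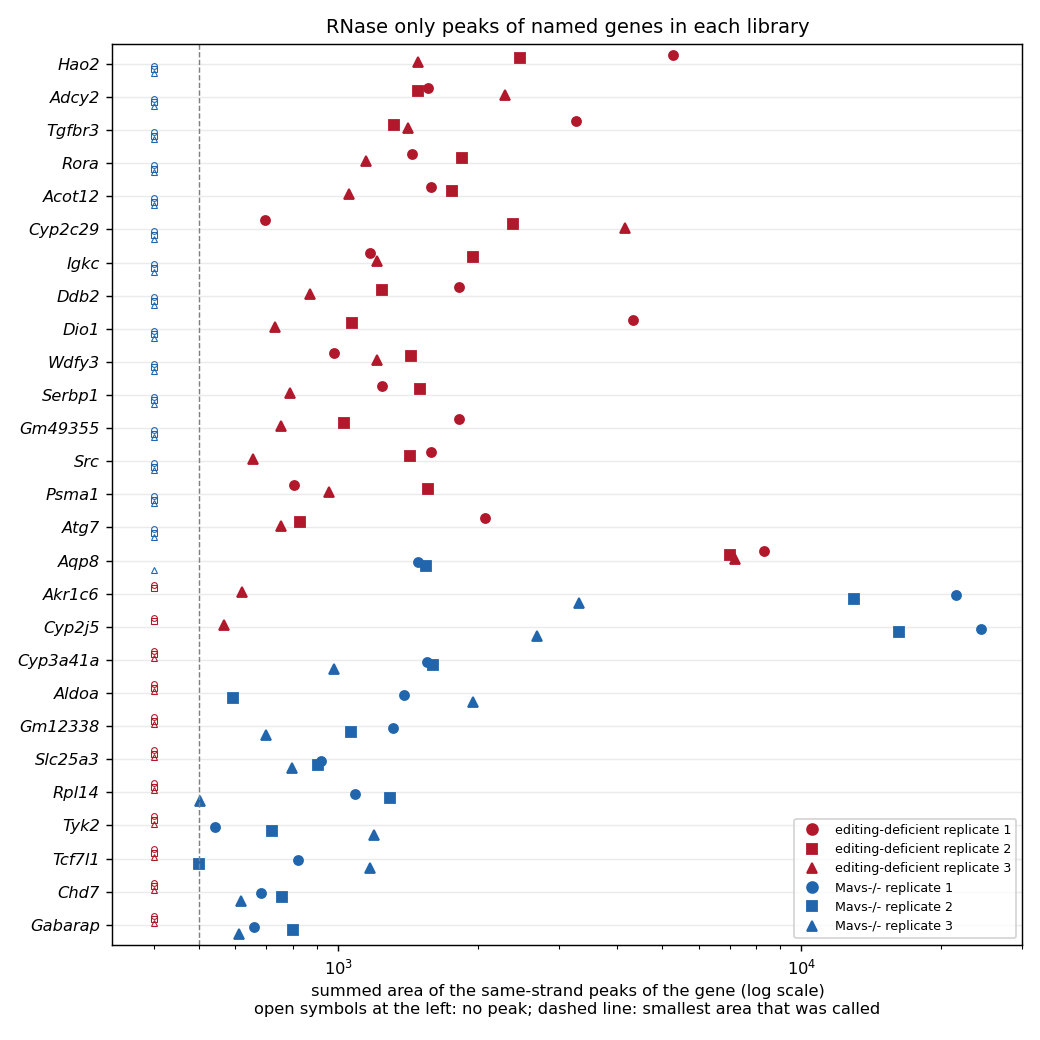
Summed area of the same-strand RNase only peaks of the 15 editing-deficient and 9 Mavs-/- genes named by the rule, with Aqp8, Akr1c6 and Cyp2j5, in each of the 6 libraries (log axis; one symbol per library, red editing-deficient, blue Mavs-/-). Open symbols at the left are libraries without a peak, and the dashed line is the area of 500 below which no peak was called; the editing-deficient symbols of the 15 genes reach 5283 in Hao2, and the Mavs-/- symbols of Akr1c6 and Cyp2j5 reach 21557 and 24430.

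Of the 102 genes 59 had intronic peaks only, and 27 had none in an intron. Of the 16 genes 3 had intronic peaks only and 13 had none in an intron. Over all 5133 genes 30.9% had intronic peaks only and 63.7% had none in an intron. The difference between the sets was not tested. In the input, 68 of the 102 genes had no peak in any library, 19 had peaks in more editing-deficient libraries and 7 in more Mavs-/- libraries. Over all 5133 genes the same shares were 60.0% without an input peak, 21.8% with more editing-deficient and 5.07% with more Mavs-/- libraries. Of the 16 genes 4 had no input peak, 5 had more editing-deficient and 3 more Mavs-/- libraries. The part of the input in these calls was not tested.

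Lists of genes by function held few called members, and no list was tested as a set. Over all 5133 genes 2558 (49.8%) had peaks in more editing-deficient and 1353 in more Mavs-/- libraries, and the lists stand beside these counts. Of 98 cytochrome P450 genes 26 had a peak, 9 in more editing-deficient and 11 in more Mavs-/- libraries, and 1 was called in each direction (Cyp2c29 and Cyp3a41a). Of 92 cytosolic ribosomal protein genes 52 had a peak, 27 in more editing-deficient and 13 in more Mavs-/- libraries. Rpl23 (733, 998 and 1460) was called in the editing-deficient and Rpl14 in the Mavs-/- livers. Of 379 solute carriers 74 had a peak, 43 in more editing-deficient and 8 in more Mavs-/- libraries, with Slc17a9 (1112, 735 and 558), a vesicular nucleotide transporter, and Slc25a3 called in opposite directions.

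Metabolic enzymes added single genes, all with intronic peaks near the limit in the editing-deficient livers. Ass1, argininosuccinate synthase of the urea cycle, had 617, 858 and 527 and was the 1 called of 7 measured urea cycle and amino acid enzymes. Bdh1, the ketone body dehydrogenase, had 713, 551 and 563 and was the 1 called of 9 genes of fatty acid oxidation and ketogenesis. Acaca, acetyl-CoA carboxylase, had 754, 549 and 655, 1 of 8 lipogenic and cholesterol genes. Phgdh, the entry enzyme of serine synthesis, had 690, 1020 and 916, 1 of 6 measured genes of the integrated stress response. Phgdh was also called in all 3 MDA5-protected libraries of the editing-deficient mice and in 1 of the Mavs-/- mice.

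Interferon-stimulated genes, which MDA5 signalling switches on through MAVS, were not called in either direction. Few of all 5133 genes were (1.99% and 0.312%), so a list this short says little. Of 34 genes 9 had a peak in any library, 6 of them in more editing-deficient and 1 in more Mavs-/- libraries. Ifih1, which encodes MDA5, had 3135, 554 and 1711 in the editing-deficient replicates and 15626 and 1257 in Mavs-/- replicates 1 and 3. The groups overlapped. None of the 13 apolipoproteins and none of 17 small structured RNA genes had an RNase only peak, although 13 and 16 of them had an input peak.

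Merged on their strand, the peaks of the 6 libraries formed 13868 regions. A peak in all 3 editing-deficient and no Mavs-/- library was found in 240 regions (1.73%) and the reverse in 40 (0.288%). With equal numbers of peaks the counts were 69 (0.798%) and 57 (0.659%) of 8650. Of the 240 regions 44 overlapped a region that was still called, and of the 40 regions 30 did. Equal numbers took no peak from Mavs-/- replicate 3 and many from every editing-deficient library, so these shares cannot be compared between genotypes.

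Regions counted as intergenic could lie opposite to a gene, since classes were assigned by strand. On their own strand the 240 regions were mostly outside exons, 140 intergenic and 62 intronic. A further 27 were in 3′ UTRs, 10 in other exons and 1 in a 5′ UTR. Intergenic regions made up 58.3% of them, beside 34.7% of all 13868 regions and 27.7% of the 1215 regions called in exactly 3 libraries of mixed genotype. The 40 regions were 14 intergenic, 13 intronic, 5 in 3′ UTRs, 5 in other exons and 3 in 5′ UTRs. Introns and intergenic space together held 84.2% of the 240 and 67.5% of the 40 regions, and 78.3% and 71.9% with equal numbers of peaks. No test of these shares was made, because the regions were chosen together from the same libraries.

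After the 3′ UTR of Hao2, the strongest region of the editing-deficient livers that is shown here was intergenic at chr7:30365614-30366070 on the minus strand, with areas of 3631, 2275 and 1461. At chr4:6683399-6683676 on the minus strand the areas were 1693, 1610 and 1579, and on the plus strand of the same place (chr4:6683464-6683679) they were 1851, 1733 and 760. Both strands of this place were thus called in every editing-deficient and no Mavs-/- library. Hmgn1, a nucleosome-binding protein, had 1 of the 3 longest regions, 747 bp of its 3′ UTR, with 512, 935 and 1381.

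Aqp8, a water channel, had 3 of the 240 regions, all in exons, and no other gene had more than 1. At chr7:123462569-123462818 the areas were 1651, 818 and 1556, at chr7:123465109-123465323 they were 1592, 1243 and 823, and at chr7:123466582-123466721 they were 966, 835 and 799. Over the whole gene the summed areas were 8301, 7029 and 7174 in the editing-deficient livers against 1484 and 1547 in Mavs-/- replicates 1 and 2 and none in replicate 3. The groups did not overlap. Input peaks of Aqp8 ran the other way, as for Hao2, in all 3 Mavs-/- libraries (1712, 632 and 579) and in no editing-deficient one.

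Of the 40 regions of the Mavs-/- livers 7 lay in 2 genes. Akr1c6, an aldo-keto reductase that acts on steroids, held 4 of them and Cyp2j5, a cytochrome P450 epoxygenase, 3, all in introns. In Cyp2j5 the strongest was 1076 bp long (chr4:96652251-96653326, minus strand) with areas of 3246, 3645 and 1489. In Akr1c6 the longest was 965 bp (chr13:4441955-4442919, plus strand) with areas of 5502, 3187 and 521. These were the longest of the 40 regions in each gene.

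Over the whole gene, Cyp2j5 had summed areas of 24430, 16255 and 2687 in the Mavs-/- livers and 566 in editing-deficient replicate 3 only. All 13 Cyp2j5 regions carried a Mavs-/- peak and 1 an editing-deficient peak. Akr1c6 had 21557, 12960 and 3313 against 621 in editing-deficient replicate 3 only, and 9 of its 9 regions carried a Mavs-/- peak. The groups did not overlap for either gene, and the lowest value of each was in Mavs-/- replicate 3. MDA5-protected peaks were called in 2 Mavs-/- and no editing-deficient libraries for both. Input peaks were called in all 3 Mavs-/- libraries for both, in 1 editing-deficient library for Akr1c6 and in none for Cyp2j5. Over the whole gene, input and digested RNA thus ran the same way. None of the 13 Cyp2j5 and 9 Akr1c6 regions themselves had an input peak.

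Further intronic regions of the Mavs-/- livers lay in Rtl4, a gene derived from a retrotransposon, with 1070, 1258 and 783, and in Akr1c6 (chr13:4440210-4440880) with 3722, 1284 and 761. The intergenic regions among the 6 strongest lay on the minus strand of chr1, at chr1:9716042-9716261 (1273, 1035 and 992), chr1:32529203-32529488 (926, 1159 and 1114) and chr1:179959864-179960062 (1149, 964 and 1011). Each of the latter 3 also had an MDA5-protected peak in 2 or 3 Mavs-/- libraries. Those at chr1:32529203-32529488 and chr1:179959864-179960062 had one in 1 editing-deficient library too.

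Regions of the 2 genotypes differed in whether the opposite strand carried a peak too. Of the 240 regions 146 (60.8%) overlapped a peak of some RNase only library on the opposite strand, against 6 of the 40 (15.0%). The share was 10.8% of the 1215 regions called in 3 libraries of mixed genotype, 26.4% of the 485 called in all 6 and 15.5% of all regions. In 27 of the 146 the opposite peak was found in at least 1 Mavs-/- library. For 46 of the 240 the opposite region was itself called in all 3 editing-deficient and no Mavs-/- library. The opposite peak was found in 132 cases in editing-deficient replicate 1, in 100 in replicate 2 and in 85 in replicate 3. Without regions that had an opposite peak, 94 and 34 regions were left.

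This share changed most without 1 library, although the number of regions with an opposite peak hardly changed. Without editing-deficient replicate 1, 762 regions were called in the remaining 2 editing-deficient and no Mavs-/- library. Of these, 144 (18.9%) had an opposite peak, beside 146 of the 240 regions with all libraries. Without any other library the share was 48.4% to 61.6%. Within libraries, the share of intronic and intergenic peaks overlapped on the opposite strand was 44.1%, 16.6% and 11.9% in the editing-deficient and 15.3%, 8.67% and 19.9% in the Mavs-/- replicates. The means, 24.2% ± 17.4 and 14.6% ± 5.64 (SD, n = 3), did not differ beyond the spread (exact permutation p = 0.60). Exonic peaks were rarely overlapped, at 1.49% to 2.89%, except in Mavs-/- replicate 3 at 17.7%.

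The same measure in the other fractions was 1.03% to 2.91% of peaks in the 6 input libraries and 4.43% to 12.0% in the 6 MDA5-protected libraries, against 5.20% to 22.8% in the RNase only libraries. Among the latter the highest values were those of editing-deficient replicate 1 (22.8%) and Mavs-/- replicate 3 (19.2%). Their part in the called regions beyond the values given was not tested.

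**Figure D4:**
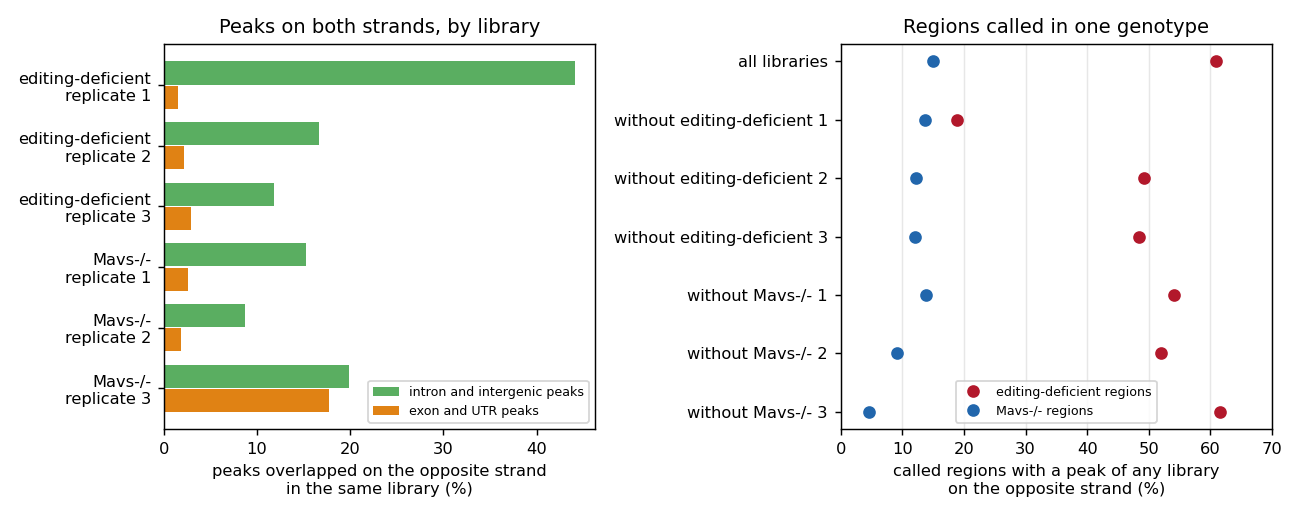
Left, share of peaks (in % of the peaks of the library) overlapped by a peak on the opposite strand of the same library, for intronic and intergenic peaks (green) and for exonic peaks (orange). Right, share of the regions called in one genotype that had an opposite-strand peak, with all libraries and without each in turn. The editing-deficient share falls from 60.8% (146 of 240 regions) to 18.9% (144 of 762) without editing-deficient replicate 1.

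Regions called by genotype without MDA5 were looked up among the peaks of the MDA5-protected libraries. RNase only peaks were not subtracted from these, as the paper had done. A peak shared with them can thus be resistance without MDA5, and the shares do not measure MDA5 binding. Of the 240 regions 17 (7.08%) had a same-strand MDA5-protected peak in any editing-deficient library and 1 (0.417%) in any Mavs-/- library. Of the 40 regions 30 (75.0%) had one in a Mavs-/- library and 6 (15.0%) in an editing-deficient library. Over the 1215 regions of mixed genotype the shares were 32.3% and 20.5%, and over the 485 regions called in all 6 libraries 61.9% and 38.8%. The first share again changed without editing-deficient replicate 1, from 7.08% to 31.4% (239 of 762), and with areas of at least 1000 it was 42.2% (19 of 45). The share of the Mavs-/- regions ran from 27.7%, without Mavs-/- replicate 3, to 68.2% when single libraries were left out.

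In the input, 7 of the 240 regions had an editing-deficient peak and 11 a Mavs-/- peak. Of the 40 regions 7 had an editing-deficient and 3 a Mavs-/- input peak, shares of 17.5% and 7.50% beside 8.91% and 6.84% over all regions. Most called regions thus had no peak in the undigested RNA of either genotype.

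**Figure D5:**
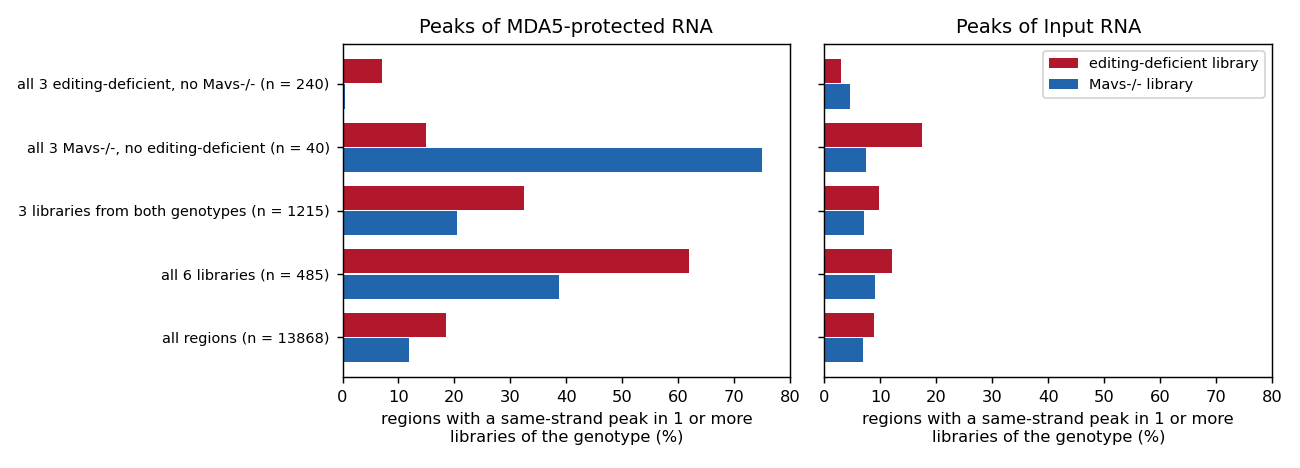
Share of RNase only regions (in %) with a same-strand peak in at least 1 library of MDA5-protected RNA (left) or input RNA (right) of each genotype, for regions called in one genotype, in 3 libraries of mixed genotype, in all 6 and for all regions; n gives the regions. The 40 Mavs-/- regions reach 75.0% in the MDA5-protected Mavs-/- libraries and the 240 editing-deficient regions 7.08% in those of their genotype.

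Genes called in all 6 libraries were compared by their summed area, as log2 values centred on the median of each library. Of 403 genes none differed between genotypes in either direction (0% higher and 0% lower, limma, Benjamini-Hochberg adjusted p below 0.05). The smallest adjusted p was 0.929, and 16 genes had an unadjusted p below 0.05, 7 higher and 9 lower in the editing-deficient livers. The values below are therefore a description of the genes that ranked first.

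The lowest p in the direction of the editing-deficient livers belonged to Gtdc1, a glycosyltransferase-like gene, with areas of 2272, 4516 and 12664 against 555, 713 and 844, mostly in introns. The groups did not overlap, and the log2 difference was 2.52 ± 0.75 (SE; limma adjusted p = 0.929). Sqor, the mitochondrial sulfide oxidoreductase, had 3377, 3711 and 4561 against 2594, 761 and 677, a log2 difference of 1.46 ± 0.53. Endod1 (0.90), Hsd17b11 (1.51) and Samd4 (1.36) had log2 differences of the same sign, as did the mitochondrially encoded mt-Co2 (2.27), mt-Atp6 (1.84) and mt-Co3 (1.73), with limma adjusted p = 0.958 for each.

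In the direction of the Mavs-/- livers Rtl4 ranked first, with 1485, 4442 and 2269 against 16566, 10071 and 2210. Centred on the library medians, the log2 values were -0.77, 0.56 and -0.14 against 2.40, 2.09 and 0.83 and did not overlap, and the log2 difference was -1.89 ± 0.52 (limma adjusted p = 0.929). Slc35g1, a membrane transporter, had 615, 618 and 555 against 2040, 1496 and 566, a log2 difference of -1.36 ± 0.40. Agpat1 (-0.999), Spint2 (-1.48), Slc20a1 (-1.20), Prdm16 (-1.17), Usp7 (-1.36) and Pigr (-1.21) followed. Pigr, the receptor that carries antibodies into bile, had 14464, 7056 and 4419 against 19045, 17421 and 8116. These areas overlapped, whereas the centred log2 values (2.51, 1.23 and 0.82 against 2.61, 2.88 and 2.71) did not.

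When a peak was required in only 4 of 6 libraries and missing areas were set to 500, 1342 genes entered and 2 passed (0.149%), Cyp2j5 and Akr1c6. Their log2 differences were -4.71 ± 0.67 and -4.60 ± 0.64 (limma adjusted p = 0.0012 for both). Both genes entered through all 3 Mavs-/- libraries, where they were high, and editing-deficient replicate 3, near the limit of 500 (566 and 621). The filter thus admitted them by the group in which they were high, and the test is no independent support for a difference. The differences, their SE and the adjusted p all depend on the area set for the 2 editing-deficient libraries without a peak. The same area in both leaves little spread in that group, so the p does not measure the spread between livers. The differences are not folds. Aqp8 had 2.42 ± 0.62 and Ltbp3, a TGF-beta binding protein, 2.52 ± 0.64, both with a limma adjusted p = 0.339.

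The largest areas of genes called in all 6 libraries belonged to 3 mitochondrial genes, Mpped1 and Dpyd. A peak that spanned adjacent mitochondrial genes was counted for each of them. mt-Nd5 had 5466, 63417 and 59097 against 130955, 36583 and 11945, and mt-Nd6, which is encoded on the other strand and overlaps mt-Nd5, had 633, 51174 and 45244 against 132884, 57899 and 16695. mt-Co1 had 89949, 25181 and 18973 against 46889, 16717 and 977. Mpped1 had 105037, 46724 and 53048 against 39778, 13676 and 20568 in its 5′ UTR. These areas did not overlap, but ranked within their library they did, since Mavs-/- replicate 3 (percentile 99.924) lay above editing-deficient replicates 2 (99.835) and 3 (99.909). Dpyd, the dehydrogenase that breaks down pyrimidines, had 7020, 66098 and 77298 against 51453, 52260 and 16749 in its introns. The areas of the other 4 genes overlapped.

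On the mitochondrial chromosome, which is transcribed in full from both strands, the minus strand held 10.7%, 42.0% and 38.2% of the summed area in the editing-deficient and 44.1%, 37.4% and 59.1% in the Mavs-/- replicates. Editing-deficient replicate 1 was again the lowest, and Mavs-/- replicate 3 the highest. A region of 576 bp on the minus strand (chrMT:1952-2527), opposite to the 16S rRNA gene mt-Rnr2, was called in all 3 editing-deficient libraries (563, 3282 and 5263) and in no Mavs-/- library. It had input peaks in all 6 libraries and MDA5-protected peaks in the 3 editing-deficient ones only. This region was chosen after its values were seen. Of 37 mitochondrially encoded genes 31 had a peak, 10 of them in all 6 libraries, and none was called by genotype.

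Composition was read for exonic peaks from the transcript window of up to 150 nt around the middle of the peak, 857 to 2814 windows per library. Median GC content was 44.7%, 46.7% and 46.7% in the editing-deficient and 47.3%, 47.3% and 53.3% in the Mavs-/- replicates. Each editing-deficient library lay below each Mavs-/- library, by a mean of -3.31 percentage points (exact permutation p = 0.10, the smallest possible, adjusted p = 0.20 over the 2 features). The highest editing-deficient and the lowest Mavs-/- library were close. Without Mavs-/- replicate 3 the difference was -1.30.

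The median predicted folding energy was -0.223, -0.230 and -0.235 kcal/mol per nt in the editing-deficient and -0.231, -0.235 and -0.274 in the Mavs-/- replicates, where a lower value is a more stable fold. These overlapped (exact permutation p = 0.30). Adenosine, the base that ADAR1 converts, made up a median of 26.7%, 26.0% and 26.7% against 26.7%, 25.3% and 23.3% (exact permutation p = 0.40). In the input, the windows had a median GC content of 52.7% to 54.3% and a folding energy of -0.279 to -0.287, so that of the RNase only libraries only Mavs-/- replicate 3 came near the input.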

How the data were processed

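Peaks were measured in 18 libraries, and the 6 RNase only lists were compared. Trim Galore 0.6.6 was used by the authors for trimming, GRCm38 as the genome and Genrich 0.6.1 for calling peaks by strand (adjusted p of at most 0.01, area of at least 500, gap of at most 20 bp, the input of the same genotype as control). The deposited score is the area under the significance curve, and the other deposited columns are significances on the −log10 scale, for the raw and for the adjusted p-value. Depth is unknown, so no counting interval is given.

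Peaks were assigned by strand to GENCODE M21 genes, where 5′ UTRs took precedence over 3′ UTRs, and these over other exons, introns and intergenic space. A peak with no gene on its own strand was counted as intergenic, also where a gene lay opposite. Overlapping peaks of all libraries were merged into regions. Library values were compared by two-sided exact permutation tests, and log2 areas by limma 3.58.1 (R 4.3.3) with Benjamini-Hochberg adjustment. Folds were predicted with ViennaRNA 2.7.2. The steps were tested on simulated data.

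Members, gene lists and tests were chosen with earlier results of these data known. Named by rule were Adar and Mavs, the 15 editing-deficient and 10 Mavs-/- genes called by genotype with the best mean rank of the area, the 8 smallest limma p in each direction, the 6 strongest and 3 longest regions of each genotype, called list members, and the 5 largest areas in all 6 libraries. Aqp8, Akr1c6, Cyp2j5, Cyp3a41b, Ltbp3, the cholangiocyte and interferon genes and the second chr4 strand were named after their values were seen. Regions on chromosome 18 and some genes, 1 of the 10 among them, are not reported here. Nothing in the labels says more of the replicates than their number, and the study calls them biological.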

Additional observations from a re-analysis of the deposited data

How the results depend on the processing

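The counts of genes and regions called by genotype depended on the number and strength of the peaks. Genes numbered 29 and 20 (editing-deficient and Mavs-/-) with equal numbers of peaks, 30 and 4 with areas of at least 1000, and 448 and 117 when 2 of 3 libraries sufficed. Regions numbered 69 and 57, 45 and 4, and 1345 and 304. Assignment by the middle base gave 100 and 14 genes and ignoring strands 129 and 16; merging over 200 bp, a minimum of 50 bp and a stricter coverage of the region gave 230 to 240 and 37 to 40 regions, and ignoring strands 194 and 35. Leaving out 1 library, or 1 of each genotype (added after seeing the data), gave 113 to 460 and 19 to 141 genes and 271 to 1322 and 44 to 407 regions. Without Mavs-/- replicate 3 there were 113 and 80 genes and 271 and 242 regions, and without editing-deficient replicate 1 there were 241 and 19 genes and 762 and 44 regions. Leaving out any of the other 4 libraries also moved at least 1 of these counts by over 1.5 times (137 to 239 and 29 to 36 genes, 289 to 697 and 72 to 77 regions). More were editing-deficient in all 9 choices of 2 libraries each, and in 6 of 9 with equal numbers of peaks. Without editing-deficient replicate 1 and Mavs-/- replicate 3, equal numbers of peaks (3826) gave 142 and 144 genes and 463 and 332 regions. Regions free of an opposite peak, also added later, numbered 94 and 34.

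The difference in genes per library was -1.33 with equal numbers of peaks, against 580.3 with all peaks. The intergenic difference was -0.328 percentage points with equal numbers and -0.0104 with areas of at least 1000, and that of 3′ UTRs -1.22 with areas of at least 1000. Without single libraries it ran from -5.60 to 5.73 for 3′ UTRs, from -3.30 to 9.51 for introns and from -3.37 to 7.53 for intergenic peaks. The opposite-strand difference ran from -1.12 to 6.95 over all peaks and from -0.356 to 15.7 over intronic and intergenic peaks. The cause was not tested. In limma, 2 genes were lower with a peak in 4 of 6 libraries and 0 genes passed under the other 12 settings; the middle base was added later. The 16 named genes of that test kept their sign wherever they were tested. The GC difference ran from -4.33 to -1.30 without single libraries. The sequence features of intronic peaks were not run.

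Replicate numbers were shared by the genotypes, and the labels do not say whether they pair the libraries. Deviations of same-numbered libraries from their group means correlated at -0.07, -0.03 and -0.06 over 403 genes. These values show no pairing, but with 3 libraries per genotype they cannot decide whether same-numbered libraries shared a batch. With the replicate number as a block, limma called 0 genes (smallest adjusted p = 0.0774, 25 genes with an unadjusted p below 0.05). Without the block limma gave a smallest adjusted p of 0.929 and 16 such genes. Exact sign-flip tests of 3 pairs, which cannot go below 0.25, gave p = 0.25 for genes (580.3), 0.25 for GC (-3.31) and 0.25 to 1.00 for the other library values.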

Other observations

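Several long genes had RNase only peaks spread over their introns in every library, with low areas in editing-deficient replicate 1. These genes were chosen after their values were seen. F8, the coagulation factor VIII, had 2660, 34897 and 38949 in the editing-deficient and 29075, 24964 and 20843 in the Mavs-/- replicates. Ghr, the growth hormone receptor, had 1062, 10500 and 10756 against 25162, 19057 and 3423. Stau2, which encodes a protein that binds double-stranded RNA, had 1927, 18874 and 26141 against 13832, 11609 and 4781. The ranges of the genotypes overlapped for each of these genes.

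Also chosen after their values were seen, the p53 targets Cdkn1a, a cell cycle inhibitor, and Ccng1, cyclin G1, had 3′ UTR peaks in more libraries of one genotype than of the other. Cdkn1a had 2740, 1892 and 628 in the Mavs-/- livers and 825 in editing-deficient replicate 2 only, while its input peaks were in all 3 editing-deficient libraries (2080, 2595 and 1329) and in no Mavs-/- library. Ccng1 had 1800, 634 and 606 in the editing-deficient livers and 639 in Mavs-/- replicate 1. Of 12 p53 targets listed, 4 had an RNase only peak.

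Hao2 lies 9.12 Mb from Adar on chromosome 3. Of the 240 regions called in the editing-deficient livers 7 (2.92%) lay within 20 Mb of Adar, beside 1.88% of all regions and 2.89% of those called in all 6 libraries.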
